A study of Homo sapiens with 12 samples.

Results

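The cytosolic ribosomal protein genes were examined in RNA-seq of triple-negative breast cancer (TNBC) cells treated with antagonists of the nuclear receptor RORγ or with a statin. The genes were chosen by symbol and by their level in vehicle-treated cells, not by their response. A member carried an RPL or RPS symbol of the standard form, or was one of RPLP0, RPLP1, RPLP2, RPSA and RPS27A or the paralog RPL36AL, and was at 1 FPKM or above in the vehicle library of all 3 expression tables. FPKM is the number of fragments of a gene per kilobase of its transcript, scaled to a fixed total of mapped fragments. Of 84 matching symbols, 82 were in all 3 tables and 80 passed the level filter. These 80 members, 48 of the large and 32 of the small ribosomal subunit, were part of 10201 genes that passed the same filter. RPL3L, the heart and muscle paralog of RPL3, was listed at 0.07, 0.03 and 0.24 FPKM in the vehicle libraries. RPL10L, the testis paralog of RPL10, was listed at 0, 0 and 3.15 FPKM, and both therefore stayed out. RPS10L and RPS17L were matched in the GSK805 table and not in the other tables, and were left out as well.

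HCC70 and MDA-MB468 are established TNBC lines. Each condition is 1 library of 1 line, collected after 24 h. The HCC70 conditions were vehicle, XY018 (a RORγ antagonist, at doses of 1.25 and 2.5 μM), atorvastatin (ATV, an inhibitor of HMG-CoA reductase) at 1.25 μM, or XY018 with ATV at 1.25 μM each. MDA-MB468 received the same 5 treatments, and in another experiment vehicle or a second RORγ antagonist, GSK805, at 2.5 μM. All 12 libraries came from cells in serum-containing medium. The 3 tables were normalized separately, so each of the 9 treated libraries was set against the vehicle column beside it as the log2 ratio of FPKM with 0.1 added to both values. Treated libraries of one table share their vehicle, so an odd value of that vehicle enters each of their ratios. No condition has a replicate, no p-value is given, and intervals cover counting error only.

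Depth, estimated from the spacing of low FPKM values, ran from 9.05 to 10.1 (in units of 1e+06 fragments) in HCC70. It was 18 to 19 in the XY018 and ATV experiment of MDA-MB468, and 8.35 and 8.7 in the GSK805 experiment. The epithelial markers EPCAM, KRT8 and KRT18 and the basal markers KRT5, KRT17 and EGFR reached at least 47.9 FPKM in each vehicle. The estrogen receptor gene ESR1 was at 0.48 to 1.77 FPKM, ERBB2 was at 25.6 to 35.2 FPKM, and PGR was listed at 0 in both MDA-MB468 vehicles. PGR had no value in HCC70. The blood marker PTPRC was at 0 to 0.6 FPKM and the fibroblast marker COL3A1 at 0 to 0.067 FPKM, although COL1A1 was at 4.45 to 10.4 FPKM. The endothelial marker PECAM1 was at 1.03 FPKM in the HCC70 vehicle. It was at 0.21 FPKM in the MDA-MB468 vehicle of the XY018 and ATV experiment and had no value in the GSK805 experiment.

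Ribosomal proteins fold onto ribosomal RNA in the nucleolus and give the large subunit, which forms peptide bonds, and the small subunit, which reads the mRNA. Their mRNAs are among the most abundant of a growing cell, and most begin with a 5′ terminal oligopyrimidine (TOP) tract, a cytidine followed by a run of pyrimidines. Through this tract LARP1 and the kinase mTOR control their translation and stability, while MYC is a known activator of their transcription.

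The start sites are shown because most members with a start window begin with a TOP tract. RefSeq start windows on GRCh38.p14 were found for 64 of the 80 members. A C at the first transcribed base followed by at least 4 further pyrimidines (C or T) was present in 46 of the 64, or 71.9%. The same was found in 7.61% of 8084 tested genes with a start window and in 5.14% of 27305 genes of the RefSeq table. Each line below gives the 30 bases before the start and the first 20 bases transcribed, 5′ to 3′ on the strand of the gene. Capitals mark the tract where there was one, and where a gene had several starts the one with a tract is shown. RPL10, RPL18, RPS18 and RPS21 were among the members furthest above vehicle with XY018 in MDA-MB468. Tracts of 7, 12, 8 and 19 bases also began RPL22, RPL26, RPL34 and RPL39, whose windows are not shown. With XY018 at 1.25 and 2.5 μM in MDA-MB468, the log2 ratios of RPL26 were 0.28 and 0.32. Those of RPL34 were -0.09 and -0.10, and those of RPL22 and RPL39 were 0.08 and 0.01 each. RPLP0, RPS6, RPL11, RPL41 and RPS27 were chosen for their abundance or role, and RPL36A with RPL36AL and RPS27 with RPS27L are paralog pairs.
RPL10 (chrX:154398347-154398396, plus strand): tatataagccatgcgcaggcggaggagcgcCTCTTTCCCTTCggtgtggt
RPL18 (chr19:48619159-48619208, minus strand): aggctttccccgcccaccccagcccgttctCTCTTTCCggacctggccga
RPS18 (chr6:33272045-33272094, plus strand): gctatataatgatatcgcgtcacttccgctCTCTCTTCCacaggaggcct
RPS21 (chr20:62387073-62387122, plus strand): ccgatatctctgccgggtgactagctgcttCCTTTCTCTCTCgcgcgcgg
RPLP0 (chr12:120201092-120201141, minus strand): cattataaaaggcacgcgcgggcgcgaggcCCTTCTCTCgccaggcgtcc
RPS6 (chr9:19380217-19380266, minus strand): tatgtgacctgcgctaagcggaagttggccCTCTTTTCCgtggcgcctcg
RPL11 (chr1:23691776-23691825, plus strand): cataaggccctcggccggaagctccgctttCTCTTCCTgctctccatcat
RPL41 (chr12:56116603-56116652, plus strand): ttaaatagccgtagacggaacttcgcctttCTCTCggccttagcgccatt
RPL36A (chrX:101390981-101391030, plus strand): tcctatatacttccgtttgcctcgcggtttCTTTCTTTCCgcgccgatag
RPL36AL (chr14:49620607-49620656, minus strand): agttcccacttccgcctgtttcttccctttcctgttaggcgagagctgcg
RPS27 (chr1:153990732-153990781, plus strand): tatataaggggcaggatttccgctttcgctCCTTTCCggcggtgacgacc
RPS27L (chr15:63157458-63157507, minus strand): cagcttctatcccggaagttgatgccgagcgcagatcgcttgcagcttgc

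The tract was 12 bases long in RPL10 and RPS21, 10 in RPL36A and 5 in RPL41. No tract stood at the annotated start of 18 of the 64 members, among them the main gene RPS26 and the paralogs RPL36AL and RPS27L. The window of RPL36AL holds a pyrimidine run that begins before its annotated start. Other motifs were searched on both strands over the 250 bases before and 50 bases after the start. CCGGAAG, the core bound by ETS factors, was in 35.9% of the members with a start window, 24.6% of tested genes and 12.2% of all genes. CACGTG, the E-box bound by MYC, was in 6.25%, 13.0% and 8.77%, and AGGTCA, the site bound by one unit of nuclear receptors such as RORγ, was in 17.2%, 13.4% and 16.5%. AAGATGGC, the core bound by YY1, was in 9.38%, 7.29% and 3.52%. A match to these letters describes the window and does not show binding.

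Levels between genes are compared as FPKM, which is per length. In vehicle-treated HCC70 the median member was at 383 FPKM, and the range ran from 19.2 FPKM for RPS27L to 2907 FPKM for RPS2, a protein near the mRNA entry channel. The next highest were RPS6, the S6 kinase substrate, at 2067 FPKM and RPL41, the smallest ribosomal protein, at 1329 FPKM. In vehicle-treated MDA-MB468 the median was 675 FPKM, and among the highest members were RPS2 (2454 FPKM) and RPL8 (1778 FPKM). RPS27L was again lowest at 11.7 FPKM, followed by RPL39L at 18.5 FPKM and RPS23 at 69.5 FPKM. In these vehicles RPL36AL, RPL39L and RPS27L each lay below the main gene of its pair, RPL36A, RPL39 and RPS27. Not every main gene lay above the paralogs, since RPS23 was at 33.4 FPKM in vehicle-treated HCC70 and RPL39L at 41.6 FPKM. The order of members was alike in the 2 lines (Spearman's rho 0.80 across 80 genes, a description).

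The members together took 8.28% to 8.75% of the summed FPKM in the 5 HCC70 libraries, lowest with ATV. In MDA-MB468 they took 14.2% in vehicle, 15.5% and 15.6% at 1.25 and 2.5 μM XY018, 14.2% with ATV and 16.4% with both compounds. In the GSK805 experiment the share was 3.69% in vehicle and 4.14% with GSK805, or 13.4% and 16.6% when summed FPKM was restricted to the 15852 symbols of all 3 tables. Every MDA-MB468 library with an antagonist therefore had a larger share than its vehicle. FPKM is relative to the library, so a change in total RNA per cell would not be seen.

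None of the 80 members passed 1.5-fold in any of the 9 comparisons. For single libraries that fold was passed by 2.89%, 3.72%, 2.02% and 4.99% of all genes tested in HCC70 with XY018 at 1.25 μM, XY018 at 2.5 μM, ATV and both. In MDA-MB468 it was passed by 15.1%, 25.1%, 1.11% and 21.7% in the same order, and by 21% with GSK805. The members also spread less than other genes. At 2.5 μM XY018 in MDA-MB468 the SD of their log2 ratios was 0.18 against 0.58 over all genes, and with GSK805 it was 0.13 against 0.56. All genes tested include many with far fewer fragments, whose ratios carry more counting error. Smaller changes were therefore counted at 1.2-fold, or 0.26 on the log2 scale. The counting interval of a member's log2 ratio reached 0.039 to 0.077 to either side of the value in the median member, depending on the comparison, and at most 0.33. These intervals rest on fragments estimated from the length of the Ensembl canonical transcript, which ran from 295 to 7573 nt over the members. Where the transcript present is shorter than the canonical one, the interval is too narrow.

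**Figure D1:**
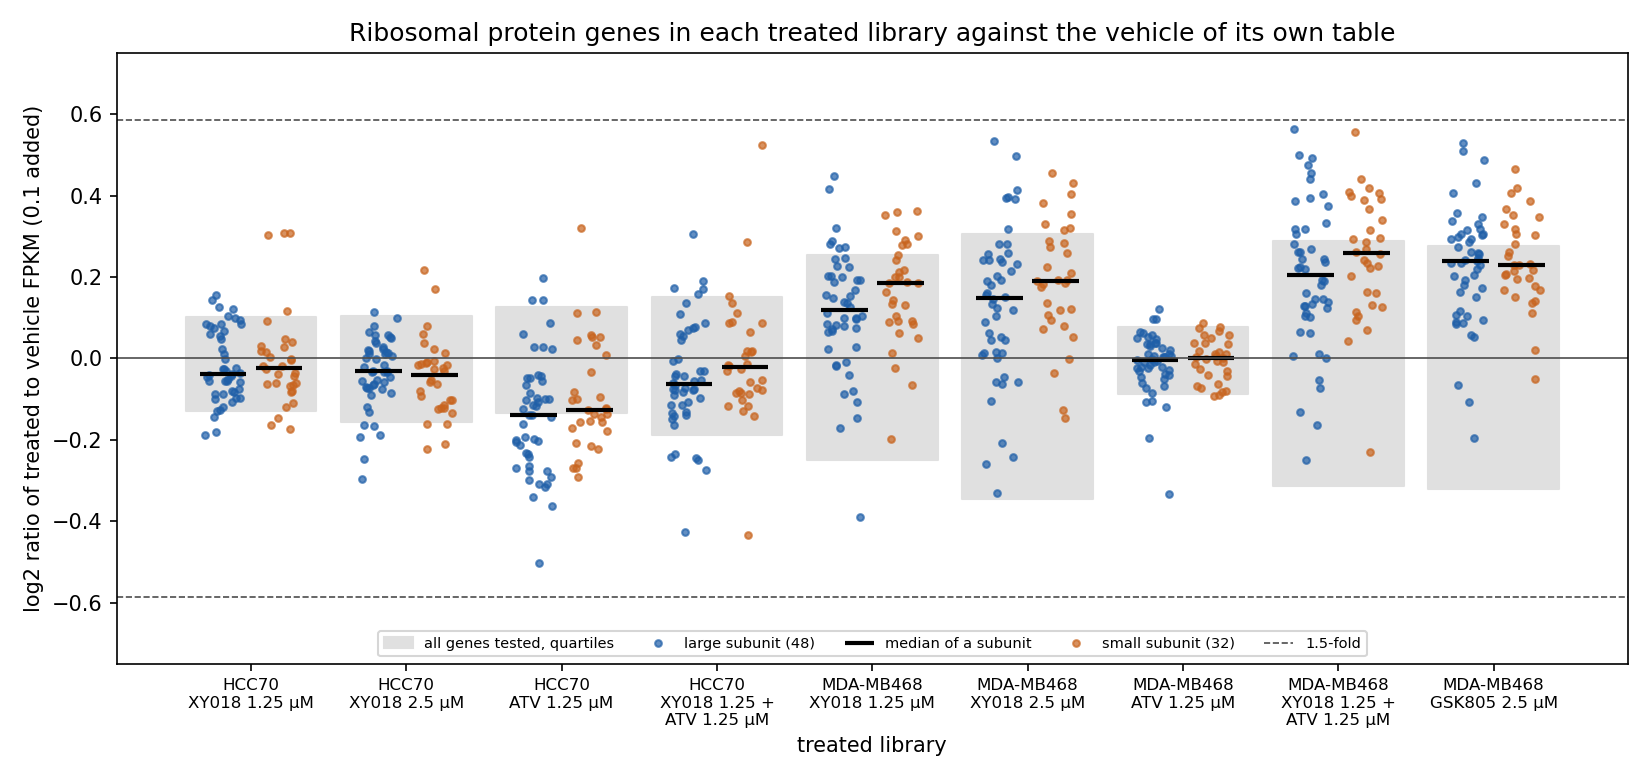
Log2 ratio of treated to vehicle FPKM (vertical axis) of each large-subunit (blue) and small-subunit (orange) gene in the 9 treated libraries (horizontal axis). Black bars are subunit medians, grey boxes the range between the quartiles of all genes tested and dashed lines 1.5-fold. No point crosses the dashed lines, and most points lie above 0 in the 4 MDA-MB468 libraries with XY018 or GSK805.

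In HCC70, XY018 left the members near the vehicle. The median log2 ratio was -0.03 at 1.25 μM, beside -0.01 over all genes, with 30 members above and 50 below the vehicle. At 2.5 μM it was -0.03 beside -0.02, with 27 above and 53 below. At 1.25 μM no member was past 1.2-fold lower (10.3% of all genes) and 3 were past it higher (7.39%). These were RPS23, a protein of the decoding centre, at 0.31, RPS27L at 0.31 and RPS27 at 0.30. At 2.5 μM only RPL36AL passed 1.2-fold lower, at -0.30 (12.6% of all genes), and no member passed it higher (8.7%).

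ATV gave the lowest median of the members in HCC70. It was -0.13 beside -0.01 over all genes, and 63 of 80 members were below the vehicle. Past 1.2-fold lower were 15 members, 18.8%, against 9.13% of all genes, and 12 of the 15 were of the large subunit. RPL36AL was lowest at -0.50 with a counting interval of -0.64 to -0.36, followed by RPL34 at -0.36 and RPL26, a protein at the peptide exit tunnel, at -0.34. RPS27 alone was past 1.2-fold higher, at 0.32, against 10.7% of all genes. With both compounds the median was -0.05 beside -0.02, and 3 members were past 1.2-fold lower (16.3% of all genes) and 3 higher (14.7%). The lower ones were RPS26 at -0.43, RPL36AL at -0.43 and RPL35 at -0.27, and RPS27 at 0.52 and RPS23 at 0.28 were among the higher ones. Set against ATV alone, the library with both compounds was higher for 71 of 80 members. The median difference was 0.09, beside -0.02 over all genes, for which no such count was taken.

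Low GC content went with the lower values under ATV in HCC70. Across the 80 members, Spearman's rho between the GC content of the Ensembl canonical transcript and the log2 ratio was 0.50 in HCC70 with ATV. Over 9716 annotated genes it was 0.46. The 20 members of lowest GC, at 44.1% or below, had a median of -0.25, and the 20 of highest GC, at 53.6% or above, had -0.07. With XY018 at 1.25 μM in HCC70 the sign was opposite, with rho -0.47 over the members and -0.10 over all genes. At 2.5 μM it was 0.03 and 0.10, and with ATV in MDA-MB468 it was 0.15 and 0.10. These are descriptions across genes of the same libraries, and the part of GC content in the differences was not tested.

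**Figure D2:**
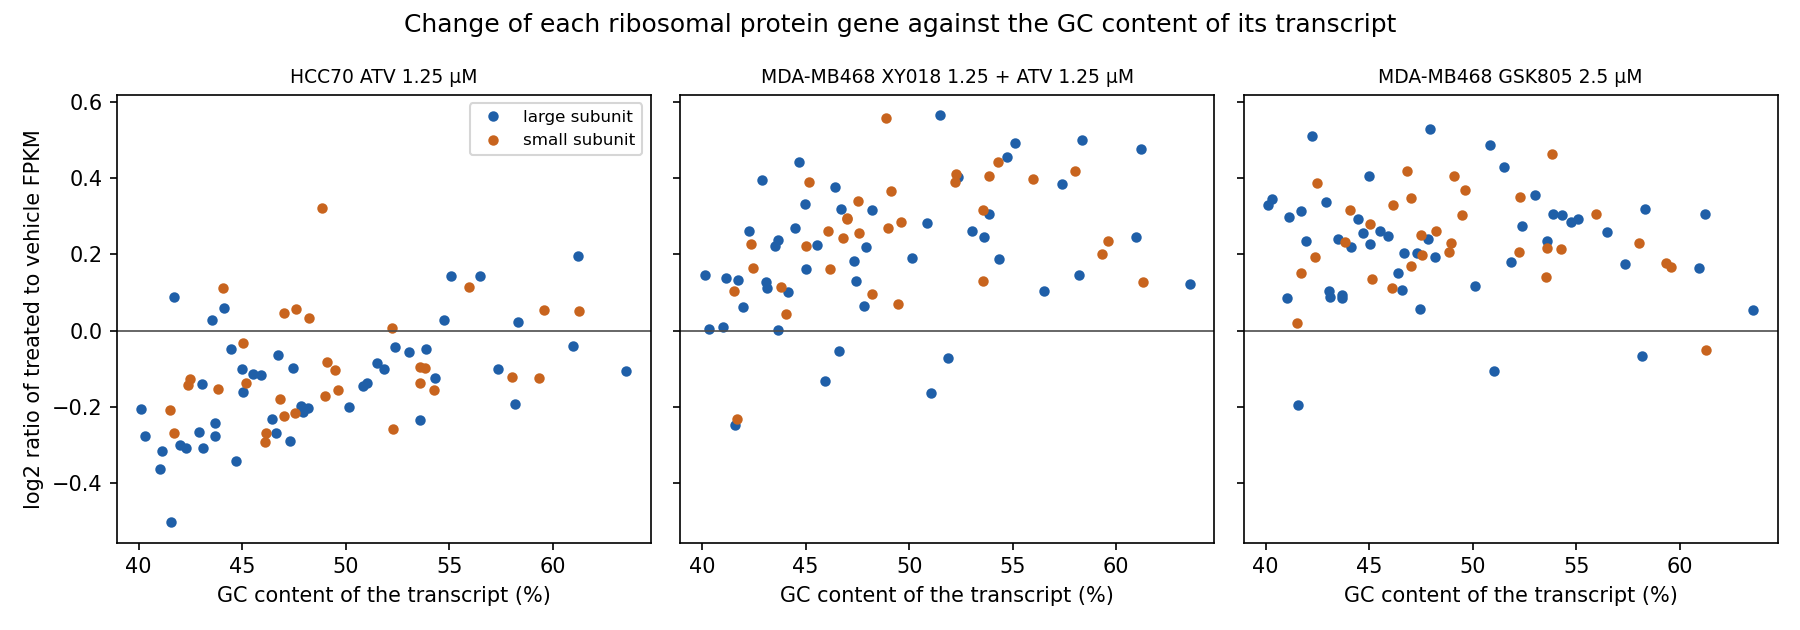
Log2 ratio of treated to vehicle FPKM (vertical axis) against transcript GC content in percent (horizontal axis) for the 80 genes in 3 libraries. GC content is that of the Ensembl canonical transcript. The points climb with GC in HCC70 with ATV (rho 0.50) and in MDA-MB468 with both compounds (rho 0.41), and show no slope with GSK805.

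In MDA-MB468, most members were slightly higher at both XY018 doses. At 1.25 μM the median log2 ratio was 0.14 beside 0.00 over all genes, with 67 members above and 13 below the vehicle. Past 1.2-fold higher were 15 members, 18.8%, fewer than the 24.1% of all genes, but only 1 member was past it lower, against 23.8%. At 2.5 μM the median was 0.18 beside -0.01, and 66 members were above the vehicle. Here 20 members, 25%, were past 1.2-fold higher against 28% of all genes, and 1 was past it lower against 30.3%. The share of members past 1.2-fold higher was thus at or under that of all genes, while the share past it lower was far smaller. The higher dose exceeded the lower dose in 52 of 80 members, with a median difference of 0.03 beside -0.01 over all genes. No member differed by 1.2-fold between doses, and all genes were not counted for either.

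ATV alone did not show this shift in MDA-MB468. The median was -0.00053, which became 0.008 when the library was rescaled to a median of 0 over all genes, and 39 members were above and 41 below the vehicle. One member, RPL39L, was past 1.2-fold lower at -0.33 (3.63% of all genes), and no member was past it higher (4.87%). With both compounds the median was 0.23 beside -0.01 over all genes, and 74 of 80 members were above the vehicle. Past 1.2-fold higher were 31 members, 38.8%, against 26.9% of all genes, and no member was past it lower, against 28.2%. The library with both compounds exceeded ATV alone by a median of 0.22 and XY018 alone by 0.08, in 74 of 80 members each. Over all genes these medians were 0.002 and -0.02, and no such count was taken. Members of higher GC were higher in these libraries, with rho 0.41 over the members and 0.05 over all genes for both compounds, and 0.29 and 0.28 over the members for XY018 at 1.25 and 2.5 μM.

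GSK805 at 2.5 μM gave a median of 0.23 beside -0.02 over all genes, and 76 of 80 members were above the vehicle. Past 1.2-fold higher were 31 members, 38.8%, against 25.9% of all genes, and no member was past it lower, against 29.4%. The highest were RPL41 at 0.53, RPL9 at 0.51 and RPL10A, a protein of the L1 stalk, at 0.49. RPL36AL at -0.19, RPL39L at -0.11 and RPL35 at -0.07 were lowest. XY018 at the same dose and time gave a median of 0.18 in the other table, with RPL41 at 0.09, RPL9 at 0.26 and RPL10A at 0.23. The antagonists were measured against different vehicles in tables of different annotation, so these values stand side by side without a test. The GC content showed no relation to the ratio with GSK805 (rho -0.00 over the members, -0.13 over all genes).

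**Figure D3:**
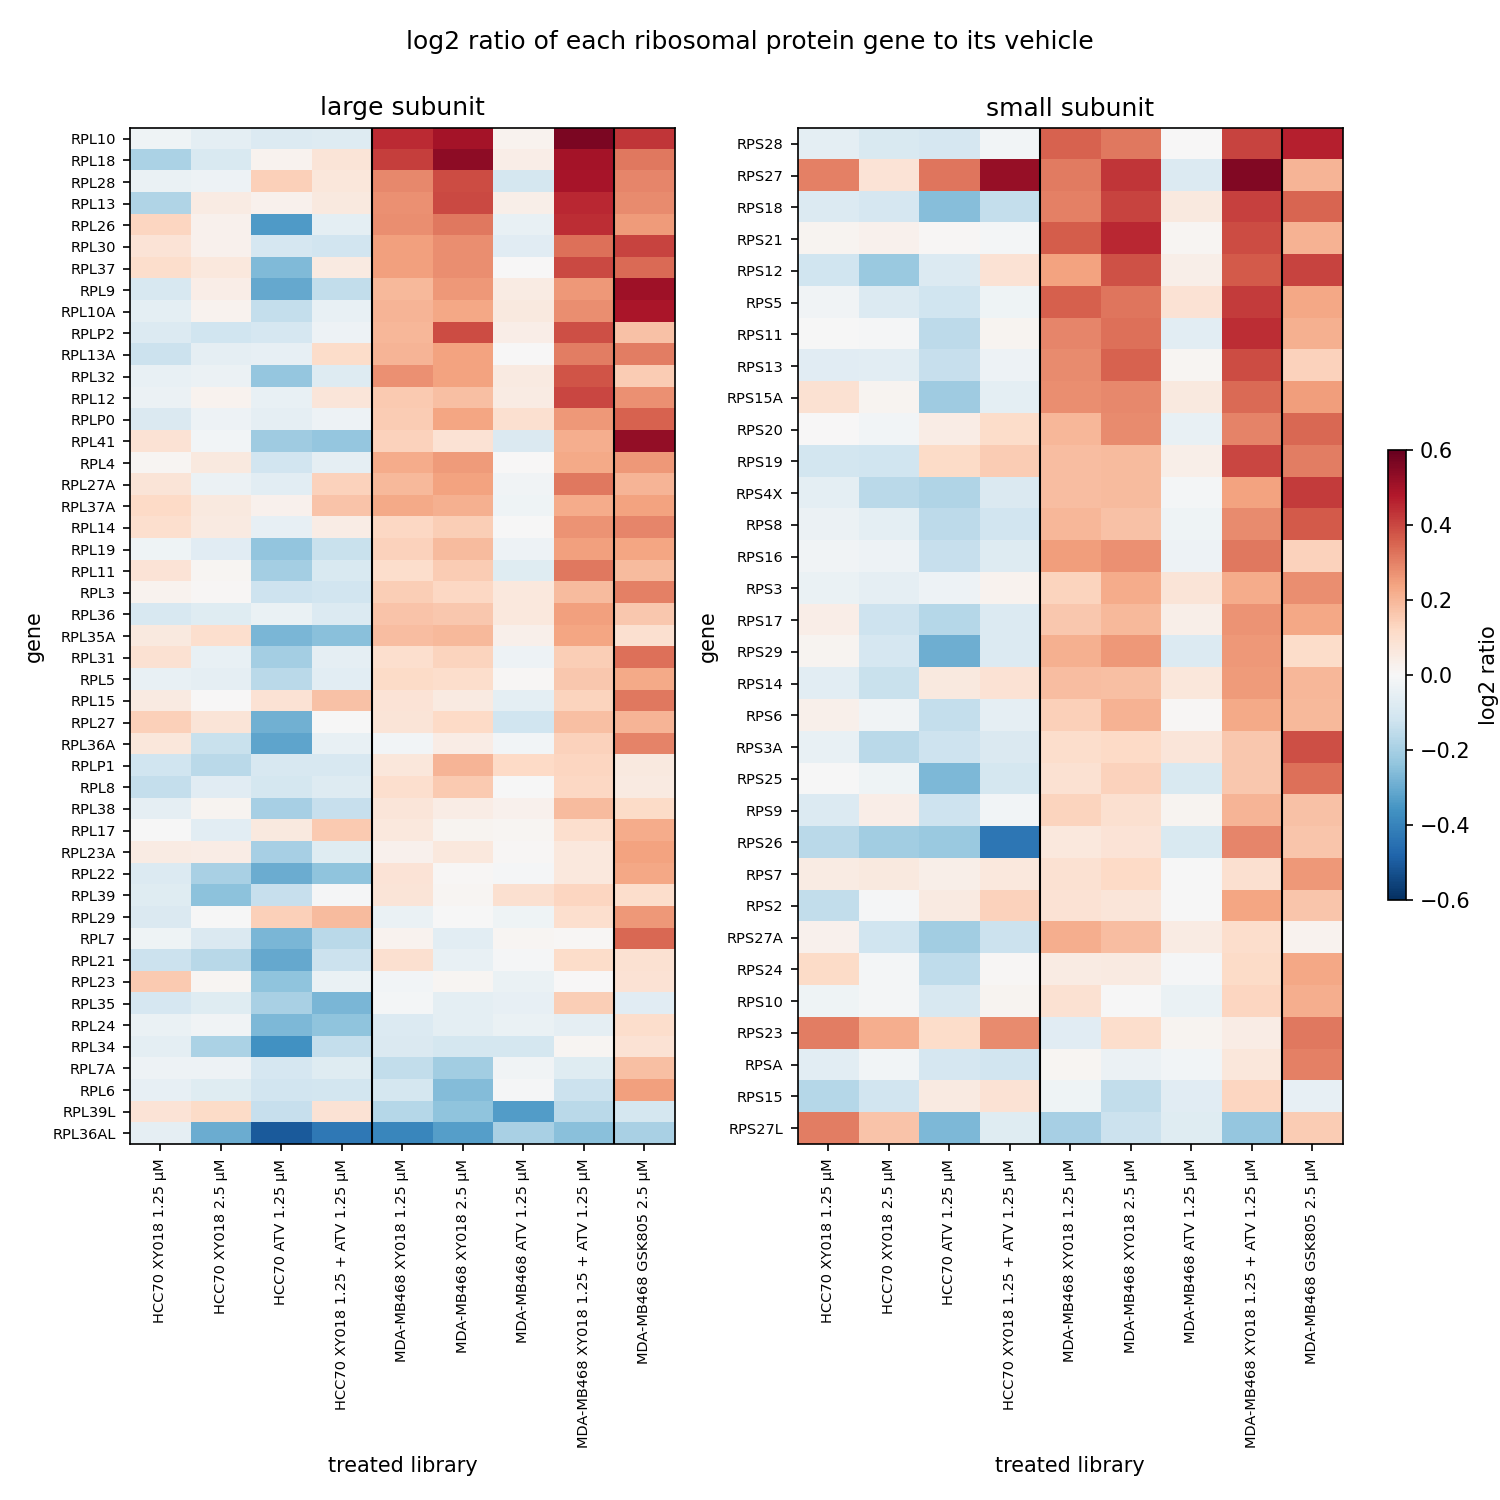
Log2 ratio (colour, from -0.6 to 0.6) of the large-subunit genes (left, 1 gene not drawn) and small-subunit genes (right) in the 9 treated libraries (columns), with genes ordered by their mean in the 4 MDA-MB468 antagonist libraries. Vertical lines part the 3 tables. The MDA-MB468 antagonist columns are mostly red, with RPL36AL and RPL39L blue in all 4, and the MDA-MB468 ATV column is pale.

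Of the 80 members, 63 (78.8%) were above vehicle in all 4 MDA-MB468 libraries with an antagonist, 3 of which share a vehicle, against 27.3% of all genes. Below it in all 4 were 2 members, against 29.5%. Past 1.2-fold higher in all 4 were 7 members, a share near the 9.04% of all genes. RPL10, RPL13, RPL18, RPL28, RPS18 and RPS28 were among the 7. RPL10 (GRCh37 chrX:153618315-153637504) encodes a large-subunit protein that joins late in the cytoplasm. Its level was 1164 FPKM in the MDA-MB468 vehicle, 1587 and 1644 FPKM at 1.25 and 2.5 μM XY018, 1180 FPKM with ATV and 1722 FPKM with both. The GSK805 experiment gave 3251 FPKM in vehicle and 4379 FPKM with the antagonist. In HCC70 it was 385 FPKM in vehicle and 363 to 378 FPKM in the 4 treated libraries. RPL10 was thus past 1.2-fold higher in the MDA-MB468 antagonist libraries and in no other, with log2 ratios of 0.45, 0.50, 0.56 and 0.43 against 0.02 with ATV. In HCC70 its ratios lay between -0.08 and -0.03.

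RPL18 (GRCh37 chr19:49118585-49122441), a structural protein of the large subunit, had a like pattern. It was at 907 FPKM in the MDA-MB468 vehicle, 1211 and 1314 FPKM at the XY018 doses, 931 FPKM with ATV and 1282 FPKM with both. With GSK805 it was at 2018 FPKM against 1618 FPKM. The log2 ratio of 0.53 at 2.5 μM XY018 had a counting interval of 0.50 to 0.57, while HCC70 values ran from 499 to 599 FPKM around a vehicle of 568 FPKM. RPS21, a small-subunit protein needed for the maturation of its ribosomal RNA, was at 293 FPKM in the MDA-MB468 vehicle. The XY018 doses gave 377 and 401 FPKM, both compounds 384 FPKM and ATV 295 FPKM. GSK805 gave 1613 FPKM against 1398 FPKM, a log2 ratio of 0.21 that lay below the members' median. In HCC70 RPS21 held between 251 and 257 FPKM in all 5 libraries. Its transcript is 358 nt long, and FPKM is least certain for members under 500 nt.

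RPS27 (GRCh37 chr1:153963238-153964631), a zinc-finger protein of the small subunit, was past 1.2-fold higher in 6 of the 9 comparisons, more than any other member. HCC70 gave 793 FPKM in vehicle and 979, 838, 990 and 1140 FPKM with XY018 at 1.25 and 2.5 μM, ATV and both. MDA-MB468 gave 1399 FPKM in vehicle, then 1736, 1885, 1321 and 2057 FPKM in the same order. With both compounds its log2 ratio was 0.52 in HCC70 and 0.56 in MDA-MB468. Its transcript of 352 nt is among the 9 members under 500 nt, for which FPKM is least certain.

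The acidic stalk recruits elongation factors to the large subunit. RPLP0, its base, was at 1074 FPKM in the HCC70 vehicle and 1010 to 1052 FPKM in treated HCC70. In MDA-MB468 it was at 1165 FPKM in vehicle, 1296 and 1373 FPKM at the XY018 doses, 1397 FPKM with both and 1247 FPKM with ATV. GSK805 gave 1629 FPKM against 1273 FPKM, a log2 ratio of 0.36. RPLP1 was between -0.16 and 0.20 in all 9 comparisons. RPLP2 was at 0.39 both with 2.5 μM XY018 and with both compounds in MDA-MB468, and between -0.12 and -0.03 in HCC70.

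Members with known roles in signalling or at defined sites of the ribosome gave values on either side of the medians above. RPL5 and RPL11 bind MDM2 when ribosome assembly stalls. RPL5 lay between -0.16 and -0.04 in HCC70 and at 0.11, 0.10, 0.01, 0.16 and 0.23 in MDA-MB468 with XY018 at 1.25 and 2.5 μM, ATV, both and GSK805. RPL11 was at -0.20 with ATV in HCC70 and at 0.32 with both in MDA-MB468. RPS6 was at 2067 FPKM in the HCC70 vehicle and 1872 to 2112 FPKM in treated HCC70, and at 1111 FPKM in the MDA-MB468 vehicle against 1115 to 1299 FPKM in its treated libraries. RPL3, which lies near the site of peptide bond formation, was between 0.12 and 0.30 in the MDA-MB468 antagonist libraries and between -0.13 and 0.02 in HCC70. RPSA, the laminin receptor of the small subunit, was at 0.01, -0.04 and 0.07 with XY018 at 1.25 and 2.5 μM and with both in MDA-MB468, yet at 0.30 with GSK805. RPS27A, made as a fusion with ubiquitin, was at 0.22 and 0.18 at the XY018 doses and at 0.02 with GSK805. RPL22, an RNA-binding protein not needed for translation itself, was at -0.30 with ATV in HCC70 and at 0.01 and 0.23 with 2.5 μM XY018 and GSK805 in MDA-MB468.

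Members that went against the rest in MDA-MB468 included the paralogs. RPL36AL (GRCh37 chr14:50085248-50087344), the autosomal copy of the X-linked RPL36A, was below vehicle in all 9 comparisons and past 1.2-fold lower in 5. Its level in HCC70 was 156 FPKM in vehicle and 150, 127, 110 and 116 FPKM with XY018 at 1.25 and 2.5 μM, ATV and both. MDA-MB468 gave 125 FPKM in vehicle and 95.2, 99.3, 109 and 105 FPKM in the same order, and 119 FPKM with GSK805 against 137 FPKM. RPL36A itself was at 0.04 with 2.5 μM XY018 and at 0.30 with GSK805 in MDA-MB468.
RPL39L was below vehicle in all 5 MDA-MB468 comparisons, with log2 ratios from -0.33 to -0.11. It had the fewest estimated fragments, 249 in the MDA-MB468 vehicle, and the counting interval at 2.5 μM XY018 ran from -0.52 to 0.03. RPS27L, the paralog of RPS27, had log2 ratios of 0.31 and 0.17 at the XY018 doses in HCC70. In MDA-MB468 they were -0.20 and -0.13, and 0.15 with GSK805. RPS27L had the lowest FPKM of all members in each vehicle, and its estimated fragments rest on a transcript length of 6110 nt. RPL6 was at -0.11, -0.26 and -0.13 with XY018 at 1.25 and 2.5 μM and with both in MDA-MB468, and at 0.25 with GSK805.

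Large and small subunits had medians within 0.07 of each other in all 9 comparisons. At 1.25 μM XY018 in MDA-MB468 the large-subunit median was 0.12 and the small-subunit median 0.19. This gap of -0.07 was the widest. At 2.5 μM the medians were 0.15 and 0.19, with both compounds 0.21 and 0.26, and with GSK805 0.24 and 0.23. With ATV in HCC70 they were -0.14 and -0.13. By counts, ATV in HCC70 had 12 of 48 large-subunit members (25%) and 3 of 32 small-subunit members (9.38%) past 1.2-fold lower. With 2.5 μM XY018 in MDA-MB468, 9 large-subunit and 11 small-subunit members were past 1.2-fold higher. The differences between subunits were not tested. Members with and without a TOP tract at the annotated start were close too, with medians of 0.18 and 0.12 at 2.5 μM XY018 and 0.23 and 0.24 with GSK805 in MDA-MB468 (46 and 18 genes).

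Other genes of the translation machinery were counted in lists of known members. TOP mRNAs outside the rule were 15, among them the elongation factors EEF1A1 and EEF2. In MDA-MB468 their median was 0.24, 0.25, 0.25 and 0.30 with XY018 at 1.25 and 2.5 μM, both and GSK805, and 0.04 with ATV. At 2.5 μM XY018, 7 were past 1.2-fold higher (28% of all genes) and 1 lower (30.3%), the lower one being the splicing regulator HNRNPA1 at -0.57. TPT1, a translationally controlled tumour protein, was at 0.74 there and EEF1A1 at 0.41. In HCC70 the median of this list lay between -0.09 and 0.00. The list thus had its highest medians in the same 4 libraries as the ribosomal proteins.

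Mitochondrial ribosomal proteins, encoded in the nucleus but used by mitochondria, were lower than vehicle by their median in all 9 comparisons. In MDA-MB468 the median of 76 genes was -0.06 and -0.15 at the XY018 doses, -0.06 with ATV, -0.20 with both and -0.29 with GSK805. With GSK805, 39 of 76 were past 1.2-fold lower (29.4% of all genes) and 3 higher (25.9%), beside none and 31 of the 80 cytosolic members. In HCC70 the median was -0.09 and -0.12 at the XY018 doses, -0.13 with ATV and -0.24 with both, where 32 were lower (16.3% of all genes) and 1 higher (14.7%). The 30 ribosome biogenesis genes gave 10 lower (30.3% of all genes) and 14 higher (28%) in MDA-MB468 at 2.5 μM XY018. PES1 and BOP1, partners in one complex of large-subunit assembly, were at 1.18 and -0.91 there. With GSK805, 8 of the 30 were lower (29.4% of all genes) and 5 higher (25.9%), with a median of -0.08. PES1 was then at -0.03 and BOP1 at 0.02. In HCC70 with both compounds 14 were lower (16.3% of all genes) and none higher (14.7%), with a median of -0.25 and nucleolin, NCL, lowest at -0.54.

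**Figure D4:**
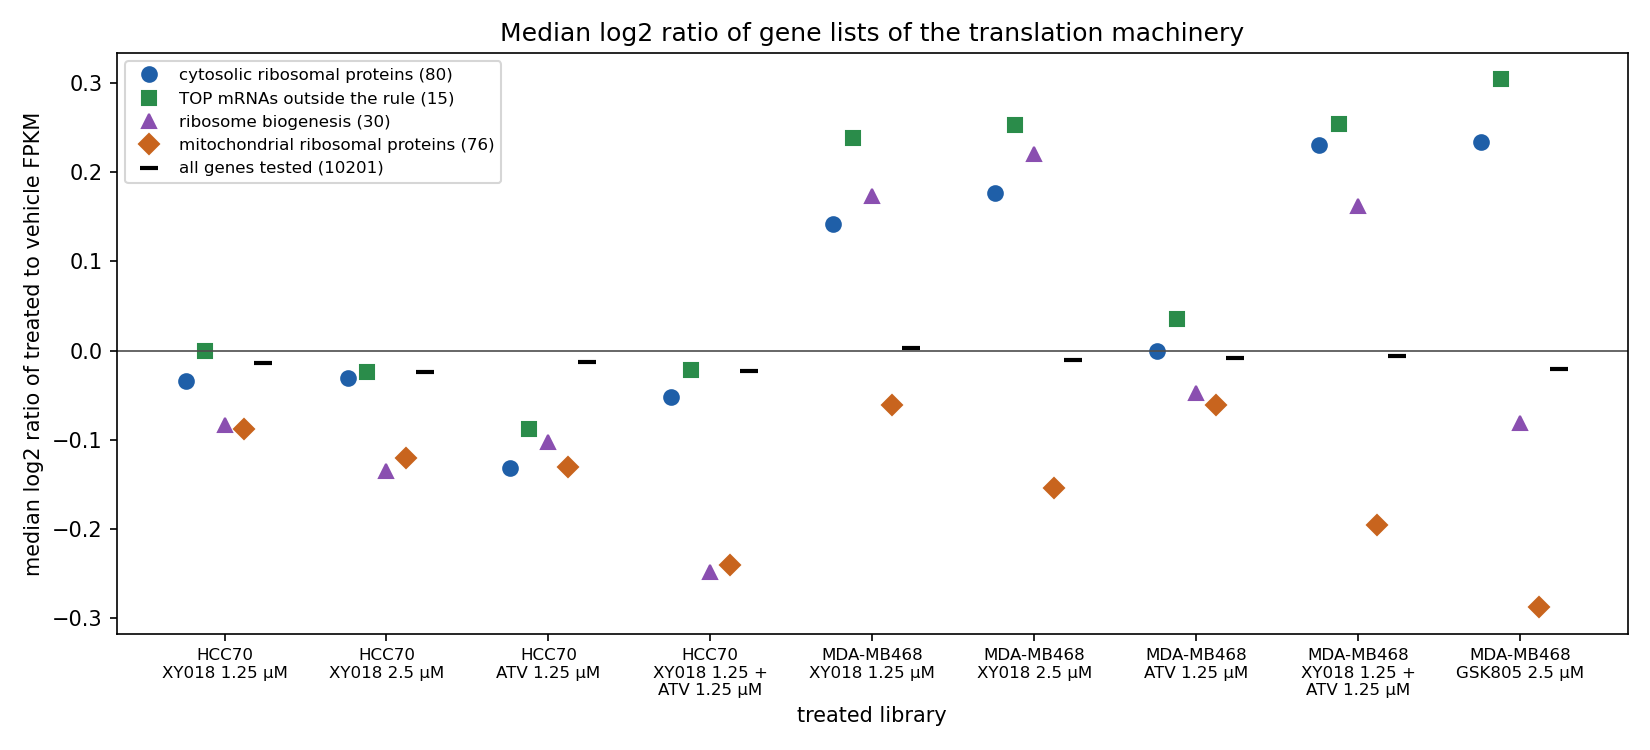
Median log2 ratio of treated to vehicle FPKM (vertical axis) in each treated library (horizontal axis) for the 80 ribosomal protein genes (circles), 15 other TOP mRNAs (squares), 30 ribosome biogenesis genes (triangles), 76 mitochondrial ribosomal protein genes (diamonds) and all 10201 genes (bars). Circles and squares lie above 0.1 and diamonds below 0 in the 4 MDA-MB468 antagonist libraries.

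Paralogs outside the rule and regulators gave single values. RPL7L1 was at -0.48, -0.64 and -0.67 with XY018 at 1.25 and 2.5 μM and with both in MDA-MB468, and at 0.11 with GSK805. RPL22L1 was at -0.61 with 2.5 μM XY018, at a level of 3.74 FPKM against 5.77 FPKM, and RPL26L1 was at -0.25 and -0.45 with 2.5 μM XY018 and GSK805. Of 7 regulators, MYC was at -0.68 at both XY018 doses and at 0.83 with GSK805 in MDA-MB468. With ATV and with both compounds it was at 0.33 and -0.04 there, and in HCC70 it lay between 0.21 and 0.45. A part of MYC in the values of the members was not tested. The MYC antagonist MXI1 was at 0.37, 0.47 and 0.55 with XY018 at 1.25 and 2.5 μM and GSK805 in MDA-MB468. LARP1 was at -0.24, -0.24 and -0.10, MTOR at 0.25, 0.26 and -0.31 and MDM2 at -0.43, -0.42 and -0.35. EIF4EBP1, the mTOR-regulated brake on cap-dependent translation, was at 0.63 with ATV and 0.74 with both in HCC70, and between -0.02 and 0.14 in MDA-MB468.

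The level of single members depended on the table. Vehicle-treated MDA-MB468 was measured in 2 experiments, and the log2 ratio of the GSK805 vehicle to the other vehicle had an SD of 1.38 over the members. Its median was 0.32, beside 0.53 over all genes tested, with 33 members past 1.5-fold higher and 18 lower. The SD and the shares past that fold were not taken over all genes, so these values are not read as particular to the members. RPS26, which contacts mRNA at the exit channel, was at 416 FPKM in one vehicle and 37.9 FPKM in the other. RPL21 was at 439 and 60.1 FPKM, and RPS27 at 1399 and 244 FPKM. In the other direction RPS23 was at 69.5 and 978 FPKM, RPL27A at 85.9 and 1276 FPKM, and RPL38 at 358 and 3442 FPKM. Each of these gaps is larger than every treated-to-vehicle ratio of a member, and rho between the vehicles' levels was 0.39.

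The GSK805 table lists 807 entries named as pseudogenes of 74 members, with a summed FPKM of 47436 in vehicle and 58175 with GSK805. For RPS26 such entries held 93% of the FPKM of gene and pseudogenes together, for RPL21 85.6% and for RPS23 56.3%, against 2.81% for RPL27A. Across members rho between that percentage and the log2 ratio of the vehicles was -0.47. Reads from near-identical copies can be placed on either, so the level of a member in this table is uncertain, and the part of annotation in these gaps was not tested. With pseudogene FPKM added to each member, a step chosen after the data were seen, the median under GSK805 moved by 0.011.

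**Figure D5:**
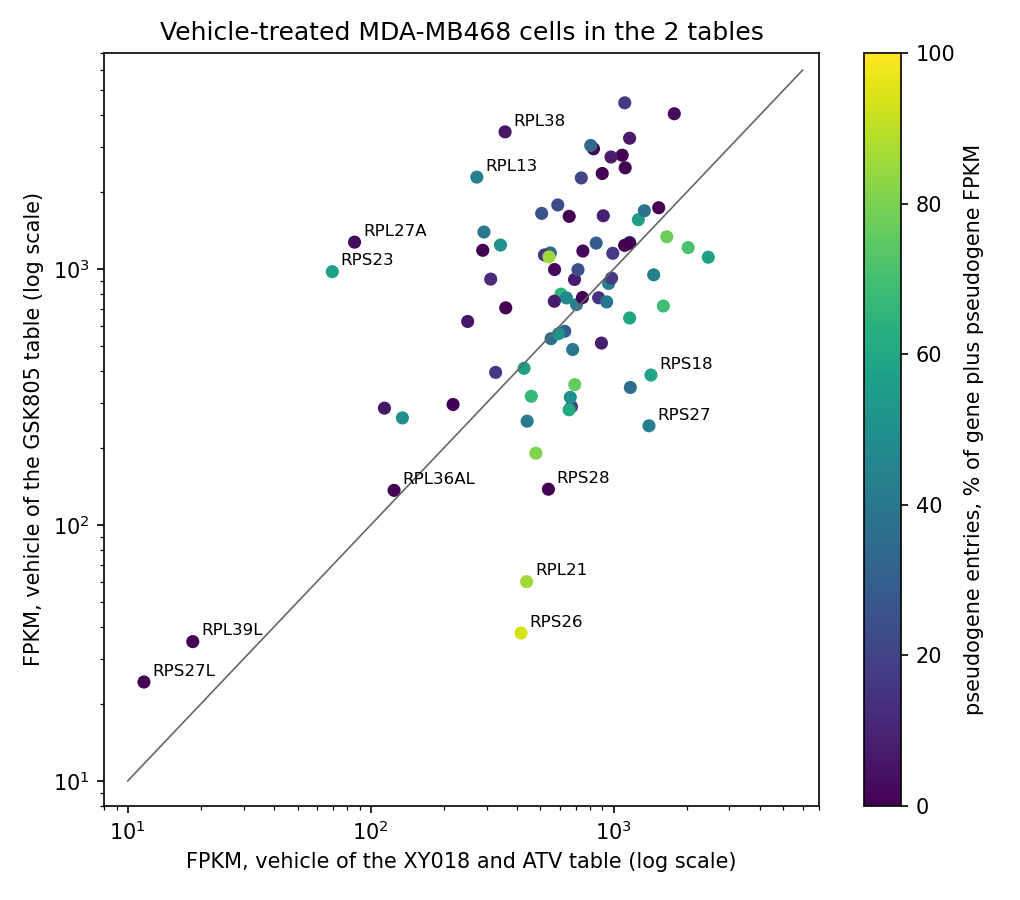
FPKM of the 80 genes in vehicle-treated MDA-MB468 cells in the XY018 and ATV table (horizontal axis, log scale) and in the GSK805 table (vertical axis, log scale). Colour gives the percentage of gene plus pseudogene FPKM held by pseudogene entries, and the line marks equal values. RPS26 and RPL21 lie far below the line with percentages of 93 and 85.6, and RPL27A, RPS23 and RPL38 lie far above it.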

How the data were processed

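RNA-seq of 12 libraries of the TNBC lines HCC70 and MDA-MB468 was analysed, with 1 library per condition. Per the submitters' processing notes, BWA, Bowtie and Cufflinks and the build GRCh37 (hg19) were used. Their versions are not given in the sources used here. The deposited values are FPKM, which the authors normalized table by table (3 tables). No unit stands in the headers, and FPKM was taken from the methods and the values.

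Symbols in all 3 tables were joined, with the entry of highest summed FPKM kept for a repeated symbol. Genes at 1 FPKM or above in all 3 vehicle libraries were kept (10201). Log2 ratios of treated to vehicle FPKM used a pseudocount of 0.1, which understates changes of low genes. Genes past 1.5-fold and 1.2-fold were counted. No test was run, since each table holds 1 library per condition and the tables were normalized separately. No read counts were used. Depth was inferred from how far apart the low FPKM values of genes with 1 transcript lie, trying length offsets of 0 to 240 nt in steps of 20 nt, and is approximate. Clopper-Pearson intervals at the 95% level were taken from estimated fragments. Transcript length, GC content and GRCh37 coordinates came from GENCODE release 44 mapped to GRCh37, and start windows came from RefSeq on GRCh38.p14.

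Named were 10 members of known roles and 5 paralogs, the 3 highest and 3 lowest ratios of each comparison, the 3 highest and 3 lowest levels of each vehicle library, members past 1.5-fold in at least 3 comparisons, and members past 1.2-fold in opposite directions in the lines at 2.5 μM XY018. The last 2 criteria named no gene. RPS18, RPS28, RPL21, RPL27A and RPL36A were named after their values were seen, as were the list genes given with values. Some genes, and 1 alternative, are not reported here. The members and lists were chosen with earlier results of these data known. The alternatives were other pseudocounts and filters, rescaling, another vehicle for GSK805, repeated symbols kept apart, short members left out, a threshold of 2-fold and, added later, pseudogene entries summed. The ratio and depth steps were tested on simulated data. Scripts ran in Python 3.11.15 with scipy 1.17.1, numpy 2.4.6 and pandas 2.3.3, and figures were drawn in matplotlib 3.10.9.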

Additional observations from a re-analysis of the deposited data

Results flagged for a closer look

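The median log2 ratio of the 80 ribosomal protein genes had opposite signs in the 2 lines in every library that received XY018. In HCC70 it was -0.034 at 1.25 μM, -0.031 at 2.5 μM and -0.053 with ATV added. In MDA-MB468 it was 0.14 at 1.25 μM, 0.18 at 2.5 μM and 0.23 with ATV added. The medians over all genes were -0.014, -0.024 and -0.023 in HCC70. With each library rescaled to a median of 0 over all genes, the members' medians were -0.020, -0.0072 and -0.029 in HCC70 and 0.14, 0.19 and 0.24 in MDA-MB468. The 3 libraries of each line share 1 vehicle, the lines come from separately normalized tables, and the difference between lines was not tested. Below vehicle in all 3 HCC70 libraries and above it in all 3 MDA-MB468 libraries were 21 of the 80 members (26.2%) and 10.4% of all genes tested.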

How the results depend on the processing

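Pseudocounts of 1 and 0.01, a filter at 5 FPKM, rescaling to a median log2 ratio of 0 over all genes, repeated symbols kept apart, short members left out, no filter and pseudogene entries summed moved no median of the members by more than 0.024. The median of MDA-MB468 with ATV turned from -0.00053 to 0.008 with rescaling, and no other median changed sign in these settings. A threshold of 2-fold called no member. Rescaling took the count past 1.2-fold lower in HCC70 with ATV from 15 to 11. Counts past 1.2-fold higher in MDA-MB468 went from 20 to 23 at 2.5 μM XY018 and from 31 to 34 with both compounds. With GSK805 the count went from 31 to 37, and to 38 with pseudogene entries summed. With short members left out, the counts in this order were 13, 16, 26 and 29. Without the filter on low values RPL3L joined, giving 81 members, while RPL10L, listed at 0 in 2 vehicle libraries, stayed out because a value above 0 was still required. It raised the count past 1.5-fold from 0 to 1 in HCC70 with 1.25 μM XY018 and from 0 to 1 with GSK805. The count past 1.2-fold lower went from 0 to 1 in HCC70 with 1.25 μM XY018, from 1 to 2 in MDA-MB468 with 1.25 μM XY018 and from 0 to 1 with GSK805. The count past 1.2-fold higher went from 0 to 1 in HCC70 with 2.5 μM XY018 and from 1 to 2 in HCC70 with ATV. Leaving out the 9 members under 500 nt removed RPS27, the 1 member past 1.2-fold higher in HCC70 with ATV, and left 0. GSK805 set against the vehicle of the XY018 experiment, in another table, gave a median of 0.52, a large minus small difference of 0.25, 51 members past 1.5-fold, 18 past 1.2-fold lower and 49 higher. Over symbols of all 3 tables the members' share of FPKM was 13.4% and 16.6% in the GSK805 experiment, against 3.69% and 4.14% over all entries. No paired analysis was run, since within a table each condition has 1 library and the tables were normalized separately. Differences between cultures cannot be told apart from those between treatments.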
